A study of Mus musculus with 3 samples.

Results

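In mouse induced regulatory T cells, 384 sites combined a strong BACH2 peak with a weak, narrow JunD peak. They were chosen from the JunD peak list as peaks with a score below 80 and a width of at most 1000 bp that overlapped, by 1 bp or more, a BACH2 peak with a −log10 q of at least 20. Each was paired with its strongest overlapping BACH2 peak by −log10 q. The 384 made up 7.33% of the 5237 JunD peaks, and their partners came from a list of 9133 BACH2 peaks. The JunD score, the JunD width, the BACH2 −log10 q and the overlap chose the sites, so these values are given as a description and not as a finding. The sites are called BACH2-dominant because the BACH2 peak ranks high in its own list and the JunD peak low in its own. The scores of the lists are on different scales, so the name does not compare how much of each protein was bound.

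The series holds a BACH2 ChIP-seq library, a JunD ChIP-seq library and an input, with 1 library of each, from wild-type C57BL/6 mice aged 8 to 12 weeks. Spleen CD4+ T cells were sorted, stimulated through CD3 and CD28 in medium with TGF-β for 4 days, and crosslinked. Peak lists of the BACH2 and JunD libraries were analysed. Because each factor had 1 library, no difference between factors or between sets of sites was tested, and the intervals below cover only the number of peaks counted. The sequencing depth behind the peaks is unknown, peaks give no expression of marker genes against which the cell type could be checked, and the labels name a pair of JunD antibodies without saying which gave the library.

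BACH2 represses transcription, belongs to the basic leucine zipper proteins and pairs with small MAF proteins. It is known in T cells for restraining effector programmes and for sustaining regulatory T cells. JunD is a subunit of AP-1, a dimeric activator of the same family that is engaged when T cells are stimulated. BACH2 and AP-1 recognise related DNA elements, so a stretch of chromatin bound by one can also be bound by the other.

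The BACH2 peaks at these sites had a median −log10 q of 38.8 (interquartile range 25.6 to 65.0), from 20.04 to 332, against a median of 11.8 in the whole BACH2 list. Their fold enrichment over the caller's background had a median of 10.3 (7.88 to 14.2) and ran from 4.79 to 57.6, against a median of 5.75 in the list. The JunD peaks had a median score of 63.9 (57.3 to 70.2), from 50 to 79.9, against a median of 81.6 for all JunD peaks. Since 50 is the lowest score in the JunD list, the JunD side of these sites lay close to the threshold at which peaks were reported. The rule set these levels. The BACH2 peak was in the strongest quintile of its list at 250 sites and the JunD peak in the weakest quintile of its own at 124, and both held at 77. The BACH2 peak was among the strongest 100 of its list at 19 sites, and its fold was 20 or more at 38.

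**Figure D1:**
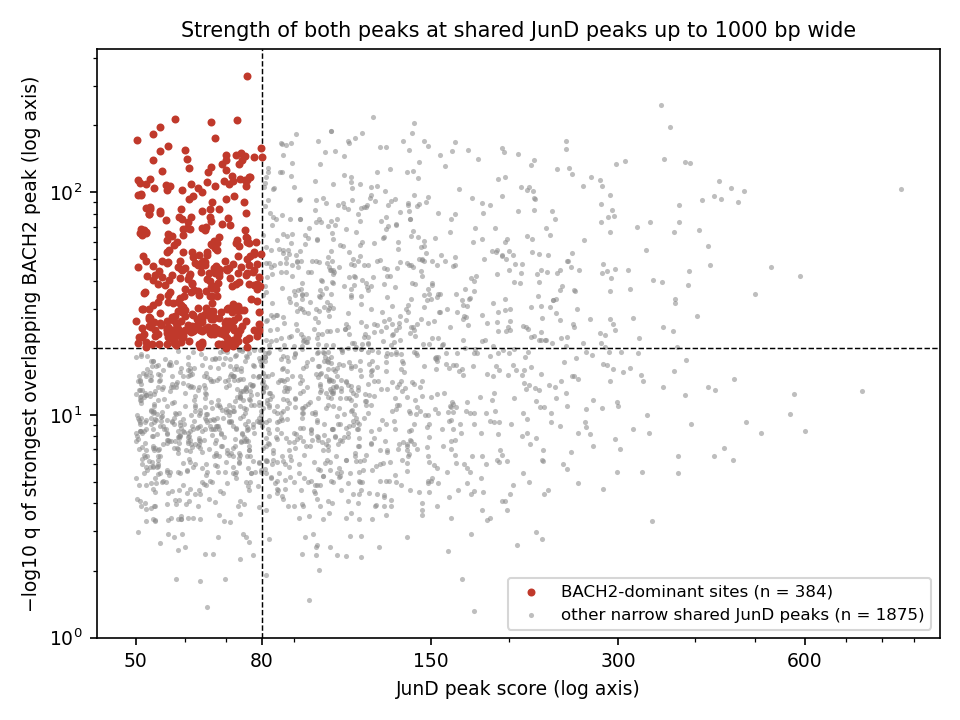
JunD score (x, log axis) against the −log10 q of the strongest overlapping BACH2 peak (y, log axis) for every shared JunD peak of at most 1000 bp, with the 384 BACH2-dominant sites in red and dashed lines at 80 and 20. The red points fill the upper left corner down to the lowest JunD score of 50, and the single highest point, at a −log10 q of 332, has a JunD score of 75.5.

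The strongest BACH2 peak of the whole series was one of these sites. It lay on chromosome 19 of mm9 (5849740 to 5850590) with a fold of 57.6, and the JunD peak inside it (5850057 to 5850530) scored 75.5 and ranked 2950 of 5237. The next site, on chromosome 10 (127781901 to 127782440), had a BACH2 fold of 28.5 at rank 12 of its list and a JunD score of 57.9 at rank 4344. A site on chromosome 11 (76758954 to 76759427) had a fold of 41.1 at rank 13 and a JunD score of 72.8. All 3 had BACH2 summits within 36.5 bp of the JunD centre, so the weak JunD peak sat directly under the BACH2 peak. On chromosome 14 (73575453 to 73576114) a BACH2 peak of 25.5-fold met a JunD peak of score 66.2, and on chromosome 16 (96114862 to 96115664) one of 40.9-fold met a score of 54.8. A site on chromosome 13 (94668365 to 94668934) joined a fold of 28.3 to a score of 53.3, and one on chromosome 18 (10532847 to 10533550) a fold of 33.7 to a score of 67.2. These 4 BACH2 peaks all ranked within the first 32 of their list. On chromosome 16 the BACH2 peak was 803 bp wide and the JunD peak 323 bp.

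The remaining 8 of the 15 sites with the highest BACH2 −log10 q were spread over 7 chromosomes. On chromosome 2 (52174695 to 52175169) the fold was 24.4 and the JunD score 50.2. On chromosome 17 (35356463 to 35357169) the fold was 33.2 and the JunD score 56.5, and on chromosome 4 (116357705 to 116358570) the fold was 33.3 and the JunD score 60.2. The chromosome 4 site was the exception in alignment among the 15, with 299.5 bp between summit and centre, while the others lay between 3.5 and 115 bp. A site on chromosome 13 (30909211 to 30909698) had a fold of 16.1 and a JunD score of 79.7, just inside the limit of 80. Chromosome 6 held a pair of sites, at 128838740 to 128839374 (15.9-fold, JunD score 54.8) and at 34812619 to 34813347 (21.6-fold, JunD score 70.1). The last of the 15 were on chromosome 9 (45108456 to 45108987, 22.5-fold, JunD score 74.0) and chromosome 10 (12594677 to 12595085, 20.1-fold, JunD score 72.7). In fold these 15 peaks ranged from 15.9 to 57.6, so a high −log10 q did not always go with a very high fold.

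**Figure D2:**
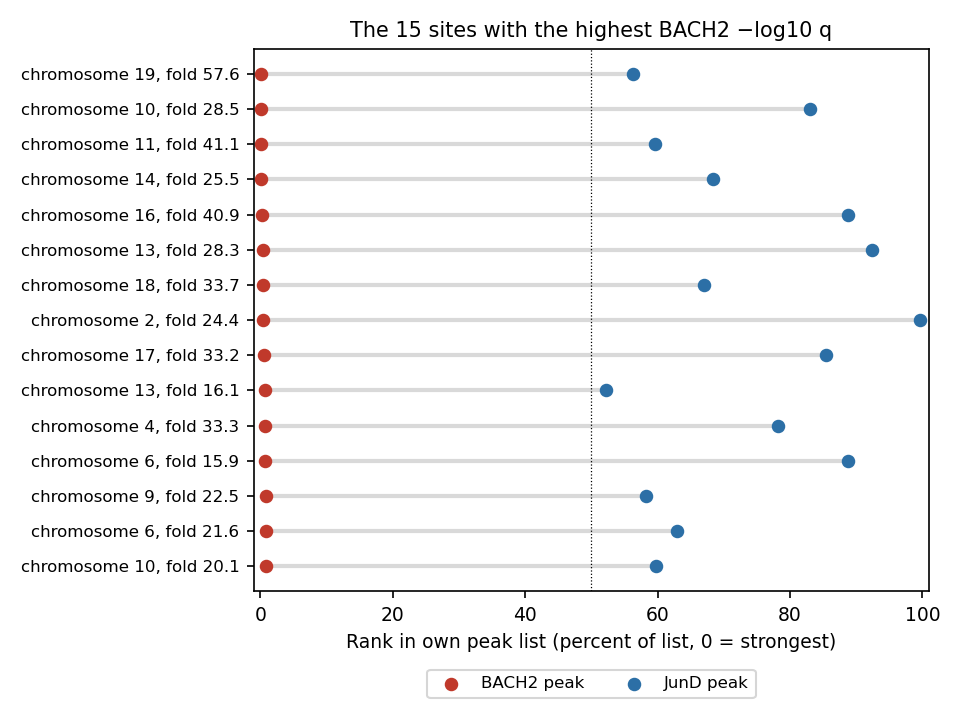
Rank of the BACH2 peak (red) and of the JunD peak (blue) in its own list, as a percent of the list with 0 the strongest, for the 15 BACH2-dominant sites of highest BACH2 −log10 q. All BACH2 peaks lie within the first 0.887% of their list, and the JunD peaks lie between 52.1% and 99.7% of theirs.

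The widest gap between the ranks was at the chromosome 2 site at 52174695. Its BACH2 peak stood 0.383% of the way down the BACH2 list and its JunD peak 99.7% of the way down the JunD list, a gap of 99.3 percentage points. The next gaps were on chromosome 17 (35978022 to 35978407, 97.3 points), chromosome 14 (79793050 to 79793689, 96.1 points), chromosome 19 (11676412 to 11676841, 95.9 points) and chromosome 12 (8719476 to 8719818, 94.6 points). BACH2 folds at these 5 sites were 24.4, 14.7, 12.8, 15.2 and 23.4 in the same order, and the JunD scores lay between 50.2 and 51.1. The median gap over all 384 sites was 58.4 points (interquartile range 47.8 to 69.2), a size that the rule largely fixed. A site on chromosome 19 (34681685 to 34682067) held the single JunD peak with the list's lowest score of 50, beside a BACH2 fold of 5.93. A JunD score of 50.5 was shared by 3 sites, the one at 11676412 on chromosome 19, one on chromosome 14 (62299434 to 62300153) with a BACH2 fold of 10.3 and one on chromosome 11 (97002146 to 97002389) with a BACH2 fold of 7.70.

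Values ran on without a break across each limit of the rule. The highest JunD scores admitted were 79.9 on chromosome 1 (53894870 to 53895833) and 79.7 and 79.6 at sites on chromosomes 13 and 5, and the lowest left out by score were 80.3, 80.4 and 80.7. The lowest BACH2 −log10 q values admitted were 20.04, 20.2 and 20.2, and the highest left out were 19.99, 19.9 and 19.9. The widest JunD peaks admitted measured 991, 991 and 995 bp, and the narrowest left out by width measured 1002, 1002 and 1018 bp.

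How many of the weak JunD peaks met a strong BACH2 peak was compared with the same share among stronger JunD peaks of at most 1000 bp. BACH2 peaks of −log10 q 20 or more overlapped 384 of the 2472 JunD peaks below 80, or 15.5% (95% interval 14.2 to 17.0), and 608 of the 2280 of 80 or more, or 26.7% (24.9 to 28.5). Over narrow JunD peaks of any score the share was 20.9%, and over all JunD peaks 21.2%. The overlap was used to choose the sites, so nothing is read from their own count. Within the sites' range the share was 12.6% (10.8 to 14.7) for JunD scores from 50 to 60, 17.7% (15.2 to 20.5) from 60 to 70 and 18.2% (15.2 to 21.6) from 70 to 80. Above it the share was 19.4% from 80 to 100, 25.5% from 100 to 150 and 36.9% (33.2 to 40.8) at 150 or more. The share was higher in each higher range, and the ranges next to 80 on either side had overlapping intervals. The median JunD width was also larger in each higher range, from 457.5 bp in the lowest to 686 bp in the highest. An overlap of 1 bp is easier to meet with a wider peak, and the part of width in these shares was not tested. Most of the narrow JunD peaks below 80, 1519 of 2472 or 61.4%, overlapped no BACH2 peak, against 974 of 2280 or 42.7% of those of 80 or more.

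Where a BACH2 peak was present at all, the shares with a strong one lay closer together. Of the 953 narrow JunD peaks below 80 that overlapped a BACH2 peak, 384 or 40.3% (37.2 to 43.4) had one of −log10 q 20 or more, against 608 of 1306 or 46.6% (43.9 to 49.3) among those of 80 or more. These intervals do not overlap. By range of JunD score the share was 37.5%, 45.6% and 38.0% below 80, and 41.7%, 44.4% and 53.0% at 80 or more. The median BACH2 fold at strong BACH2 peaks was 10.3, 9.79 and 10.8 in the score ranges 50 to 60, 60 to 70 and 70 to 80, and 10.6, 10.5 and 9.89 in the ranges 80 to 100, 100 to 150 and 150 or more. There was no steady change of fold with JunD score. The median −log10 q in the same ranges was 35.4, 37.9 and 42.3 below a score of 80, and 46.1, 46.5 and 44.8 above it, a shift towards higher values up to a score of about 80 and little change beyond. Across the 384 sites, the JunD score and the BACH2 −log10 q had a Spearman's rho of 0.037 and, on log scales, a Pearson's r of 0.034. These values describe pairs that share 2 libraries and a range cut on both sides, and they carry no test.

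Seen from the BACH2 side, 2711 BACH2 peaks had a −log10 q of 20 or more. The BACH2-dominant sites took 384 or 14.2% of them, narrow JunD peaks of 80 or more took 606 or 22.4%, and 1597 or 58.9% met no JunD peak. From the lowest to the highest range of −log10 q, the share at BACH2-dominant sites was 16.3%, 12.1%, 13.9%, 11.9%, 13.4% and 20%. The share with a narrow JunD peak of 80 or more was 18.1%, 17.6%, 22.8%, 22.0%, 34.3% and 34.0%. The highest ranges of BACH2 −log10 q thus held more JunD peaks of 80 or more, while the share with a weak JunD peak had no steady direction. Even among the 265 BACH2 peaks of −log10 q 100 or more, 53 were BACH2-dominant sites, 90 had a narrow JunD peak of 80 or more and 112 had no JunD peak. Among the strongest 100 BACH2 peaks the counts were 19, 37 and 39.

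**Figure D3:**
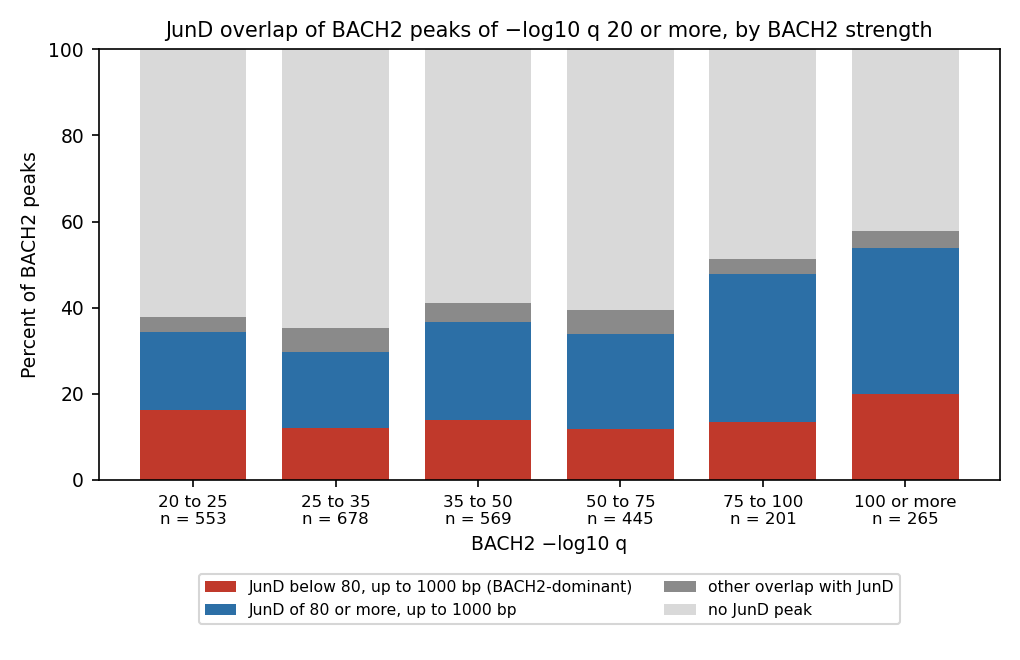
Share of BACH2 peaks (y, percent) in 6 ranges of BACH2 −log10 q (x), divided by the JunD peak they overlap, with the number of BACH2 peaks under each bar. The red segment (BACH2-dominant sites) stays between 11.9% and 20%, while the blue segment (narrow JunD of 80 or more) is 18.1% in the first bar and 34.0% in the last.

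The position of the BACH2 summit within the JunD peak was not part of the rule. At the 384 sites the median distance from summit to JunD centre was 44.5 bp (95% interval of the median 38 to 50; interquartile range 19.4 to 81.3 bp). It was 44.5 bp (40.5 to 49.5) at the 608 narrow JunD peaks of 80 or more with a BACH2 −log10 q of 20 or more. It was 44.5 bp (40.5 to 51) at the 569 narrow JunD peaks below 80 whose strongest BACH2 peak was below 20. The median distance in bp was thus the same in the 3 sets. All 3 required an overlap with a JunD peak of at most 1000 bp, which bounds this distance. As a share of the way from the JunD centre to the edge of the JunD peak, the median distance was 0.178 (0.155 to 0.203) at BACH2-dominant sites, against 0.151 (0.139 to 0.165) where JunD was stronger and wider and 0.180 (0.167 to 0.202) where BACH2 was weaker. The summit was within 100 bp of the centre at 314 of 384 sites, or 81.8% (77.6 to 85.3), against 80.1% (76.7 to 83.1) and 80.3% (76.9 to 83.4) in these other sets. It lay on the lower-coordinate side of the centre at 205 sites and on the higher-coordinate side at 177, with a median signed offset of −4 bp (−10 to 2.5).

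Peak widths differed more between the sets than the distances did. The JunD peaks of BACH2-dominant sites were 485.5 bp wide at the median (middle 50% of sites 416 to 591 bp), against 629 bp (523 to 736) where the JunD score was 80 or more and 495 bp (415 to 623) where BACH2 was below 20. Their BACH2 peaks had a median width of 392.5 bp (322 to 491), against 426 bp (347 to 542) and 235 bp (197 to 305) in these sets. Width goes with strength within a list, with a Spearman's rho of 0.54 between BACH2 width and −log10 q over the 384 sites, so the rule itself bears on these widths. The BACH2 peak was wider than the JunD peak at 116 of the 384 sites, or 30.2%, against 85 of 608 (14.0%) and 20 of 569 (3.51%). The BACH2 peak lay wholly inside the JunD peak at 187 BACH2-dominant sites, or 48.7%, against 431 (70.9%) and 472 (83.0%).

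**Figure D4:**
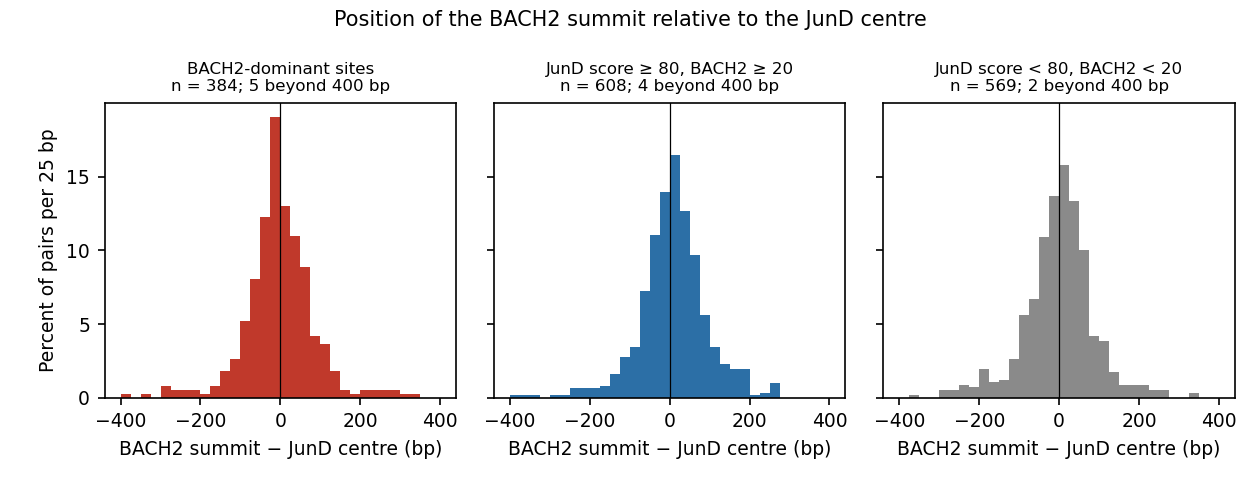
Signed distance from the JunD centre to the BACH2 summit (x, bp; y, percent of pairs per 25 bp) at the 384 BACH2-dominant sites (left), the 608 sites with a narrow JunD peak of 80 or more and BACH2 of 20 or more (middle) and the 569 sites with both peaks weak (right). All 3 distributions peak close to 0, and each has a median absolute distance of 44.5 bp.

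At 15 of the 384 sites, or 3.91% (2.38 to 6.34), the BACH2 summit fell outside the JunD peak, against 5 of 608 or 0.822% (0.352 to 1.91) and 8 of 569 or 1.41% (0.714 to 2.75) in the other sets. At these 15 the BACH2 peaks were 374 to 1078 bp wide, with a median of 680 bp, and the JunD peaks had a median width of 416 bp. The rule bears on the widths of both peaks and so can bear on this share, which was not tested. The longest distance, 575.5 bp, was on chromosome 5, where the BACH2 peak at 125870170 to 125870991 met a JunD peak at 125869908 to 125870297. Also on chromosome 5, the BACH2 peak at 66274466 to 66275166 and the JunD peak at 66273867 to 66274489 shared 24 bp and had 573 bp between summit and centre. Further long distances were 529.5 bp on chromosome 2 (BACH2 102820944 to 102822021), 494.5 bp on chromosome 19 (29311173 to 29311865) and 487.5 bp on chromosome 5 (106159975 to 106160684). The JunD list gives no summits, and whether both factors were bound to the same element at such sites was not tested. At the 77 sites of strongest BACH2 and weakest JunD quintile, the summit was within 100 bp of the centre at 69, or 89.6% (80.8 to 94.6), with a median distance of 44.5 bp, so the most unequal pairs were mostly well aligned.

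Nearly all sites were simple pairs. A single BACH2 peak overlapped the JunD peak at 382 sites, and 2 did so at the remaining 2. One of these, on chromosome 9, had BACH2 folds of 9.41 (96483527 to 96483894) and 2.79 (96484046 to 96484416) under a JunD peak of score 59.4. The other was the chromosome 19 site with the lowest JunD score, where the second BACH2 peak had a fold of 4.39. The converse was found once, on chromosome 2, where a BACH2 peak of 20.5-fold (72008627 to 72009573) covered parts of a JunD peak of score 69 (72008462 to 72009027) and of another of score 99.2 (72009067 to 72009738). That BACH2 peak counted as BACH2-dominant through the weaker of its JunD partners.

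About as many sites stood alone as stood near others. Neither another BACH2 summit nor another JunD centre lay within 10 kb at 201 of 384 sites, or 52.3% (47.3 to 57.3), against 280 of 608 (46.1%, 42.1 to 50.03) with stronger JunD and 258 of 569 (45.3%, 41.3 to 49.5) with weaker BACH2. Another BACH2 peak lay within 10 kb at 44.5% (39.6 to 49.5) of BACH2-dominant sites, against 49.0% (45.1 to 53.0) and 47.1% (43.0 to 51.2) in these sets. The share was 38.4% (36.1 to 40.9) for the 1597 BACH2 peaks of −log10 q 20 or more with no JunD peak. Another JunD peak lay within 10 kb at 27.3% (23.1 to 32.0) of BACH2-dominant sites, against 31.1% (27.5 to 34.9) where JunD was stronger and 33.0% (29.3 to 37.0) where BACH2 was weaker. The intervals overlap among the 3 shared sets for each of these measures. The median distance to the nearest other BACH2 summit was 13.2 kb, and to the nearest other JunD centre 34.0 kb.

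Among the 171 sites with a BACH2 neighbour, the site's own BACH2 peak was the strongest within 10 kb at 137, or 80.1%. That share was 77.5% where JunD was stronger and 32.8% where BACH2 was weaker. Among the 105 sites with a JunD neighbour, the site's own JunD peak was the strongest at 17, or 16.2%. In the other sets this held at 67.2% and 17.0%. The rule favours both of these outcomes. A JunD neighbour of 80 or more was present at 69 of the 105, or 65.7%. The share was much the same in the other sets, at 65.1% and 65.4%. At 49 of these 69 sites, at least 1 such JunD neighbour had no BACH2 peak of −log10 q 20 or more, or 71.0% (59.4 to 80.4). The same was seen at 62 of 123 sites (50.4%, 41.7 to 59.1) where the site's own JunD peak was 80 or more, and at 89 of 123 (72.4%, 63.9 to 79.5) where its BACH2 peak was below 20. Of the 87 distinct JunD peaks of 80 or more near BACH2-dominant sites, 20 had no BACH2 peak, 35 had one below 20 and 32 (36.8%, 27.4 to 47.3) had one of 20 or more. The last share was 48.9% (40.8 to 57.1) of the 139 such peaks near sites whose own JunD peak was 80 or more. Near sites with BACH2 below 20 it was 29.3% (22.5 to 37.1) of 147. Over all 2717 JunD peaks of 80 or more it was 26.4% (24.7 to 28.0). The value near BACH2-dominant sites thus lay between those of the other sets, and its interval overlaps each of these.

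The strongest site, on chromosome 19, had strong JunD peaks nearby. Its BACH2 peak of 57.6-fold was surrounded by 5 other BACH2 peaks within 10 kb, with folds from 4.52 to 7.23 and −log10 q values from 7.93 to 16.6. Its JunD peak of score 75.5 had 3 JunD neighbours, all on the lower-coordinate side. These included a JunD peak of score 372 (5841647 to 5844127) and one of score 294 (5844549 to 5845794), each overlapping a BACH2 peak of fold 6.22 or 4.52. The remaining one, of score 62.9, overlapped none. Within less than 10 kb the region thus held the top BACH2 peak of the series over a weak JunD peak. It also held a pair of strong, broad JunD peaks over BACH2 peaks with a −log10 q below 20.

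**Figure D5:**
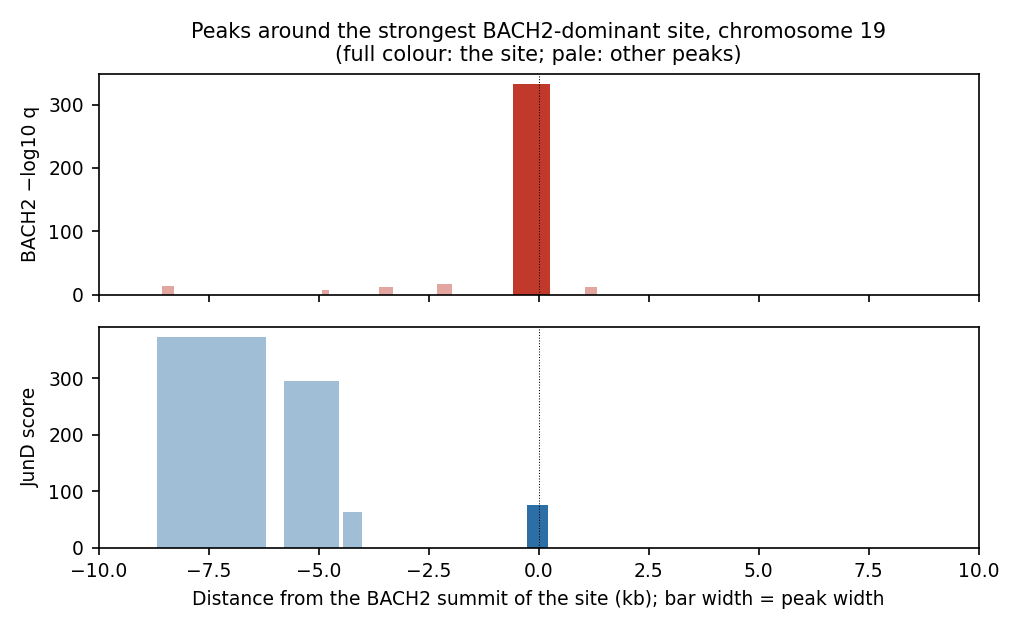
Peaks within 10 kb of the BACH2 summit of the chromosome 19 site, with BACH2 −log10 q above and JunD score below (y, different scales; x, distance from the summit in kb; bar width is peak width). The site (full colour) reaches a −log10 q of 332 with a JunD score of 75.5, while the JunD peaks of score 372 and 294 lie to its left beside low BACH2 bars.

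A pair of sites each had 6 other BACH2 peaks within 10 kb, the most of any. On chromosome 9 (45981020 to 45981508) the BACH2 fold was 20.3 with a JunD score of 61.8, among BACH2 peaks of 4.24-fold to 9.46-fold. The neighbouring JunD peak there scored 111 and met the BACH2 peak of 4.24-fold, the weakest of the region. On chromosome 3 (105611682 to 105612072) the BACH2 fold was 8.54 and the −log10 q 24.6, with a JunD score of 51.2. The other JunD peak within 10 kb scored 102 and met a BACH2 peak of lower fold, 7.78, but higher −log10 q, 32.2.

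Joining BACH2-dominant sites with JunD centres at most 10 kb apart left 370 single sites and 7 pairs. The sites made up 7.33% of all JunD peaks, and 105 of the 384 had any other JunD peak within 10 kb. Few pairs can follow from these shares alone, and whether the sites lay apart from each other was not tested. The closest pair, on chromosome 9 (66730022 to 66731810), spanned 1789 bp and had BACH2 folds of 13.4 and 11.5 with JunD scores of 52.6 and 56.2. A pair on chromosome 10 (61968632 to 61970941) had folds of 9.22 and 7.03 with JunD scores of 72.5 and 52.5. Another pair, spanning 4822 bp of chromosome 18, had folds of 9.24 and 6.88 with JunD scores of 65.3 and 72.8. The chromosome 2 site with the widest rank gap belonged to another pair, whose second member (BACH2 52166210 to 52166533) had a fold of 7.86 and a JunD score of 67.

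Every one of the 19 autosomes held sites, as did the X chromosome. Chromosomes 11, 10 and 2 held the most, with 33, 32 and 30, and the X chromosome held 4. As a share of the narrow JunD peaks below 80 on the same chromosome, they ranged over the autosomes from 9.09% (5.59 to 14.5) on chromosome 7 to 25.4% (18.6 to 33.6) on chromosome 10. On the X chromosome the share was 10.8% (4.29 to 24.7) of 37 peaks. The interval of chromosome 10 lay above the value of 15.5% for all chromosomes and that of chromosome 7 below it. Both were singled out of 20 after the values were seen and were not tested. As a share of the BACH2 peaks of −log10 q 20 or more on the same chromosome, other chromosomes were the extremes. That share was 7.28% on chromosome 3 and 20.9% on chromosome 19, with 10.6% on chromosome 7 and 18.1% on chromosome 10.

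Stronger BACH2 peaks were wider, while the JunD score and the distance from summit to centre showed no steady change with BACH2 strength. When the 384 were divided by BACH2 −log10 q into 4 sets of 96, the median JunD score was 63.5, 65.2, 64.0 and 63.0 from the strongest set to the weakest, and the median BACH2 width was 501.5, 393.5, 354.5 and 333 bp. Summit and centre were a median of 41.8, 41.8, 46.5 and 44.8 bp apart, and another BACH2 peak lay within 10 kb at 42.7%, 42.7%, 42.7% and 50%. Summits within 100 bp of the centre made up 86.5% (78.2 to 91.9), 82.3%, 81.3% and 77.1% (67.7 to 84.4), and the intervals of the strongest and weakest sets overlap. BACH2 fold was tied to −log10 q, with a Spearman's rho of 0.86 over the 384 sites, and 312 of the sites would also be among the 2711 BACH2 peaks of highest fold. The lowest folds at the sites were 4.79 on chromosome 13 (44602485 to 44602796), 5.10 on chromosome 5 (64879110 to 64879577) and 5.21 on chromosome 11 (46212347 to 46213062), picked after their values were seen.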

How the data were processed

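Peak lists of 1 BACH2 and 1 JunD ChIP-seq library were used, and no input signal was used. The submitters' processing notes name Bowtie 0.12.9 and mm9; the caller's version and control library are not stated there. The BACH2 list the authors deposited gives each peak a fold enrichment, a −log10 p-value and a −log10 q-value, as read from the narrowPeak layout, and an integer score, which repeats the −log10 q on a coarser scale and was not used. The JunD list the authors deposited gives a single score whose scale is not stated. Such values, made by the authors, describe and rank peaks within a list.

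Coordinates are mm9, counted from 1. No mm9 sequence or gene annotation was used here, so sites are named by position, and the planned motif and gene descriptions were not run. The members and lists were chosen with earlier results of these data known. The sites named were the 15 of highest BACH2 −log10 q, the 5 of lowest JunD score, of widest rank gap and of longest summit distance, the 3 on each side of every limit, and pairs of neighbouring sites; other named sites were picked after their values were seen. Distances were measured between the BACH2 summit and the middle of the JunD peak. Shares have Wilson 95% intervals and medians have binomial order-statistic intervals, both for counting error alone. The selection was tested on simulated data with planted overlaps. Every planted pair met the limits of the rule, so this checked only that such pairs are found, and pairs just outside a limit were not tried. Python 3.11.15, numpy 2.4.6, pandas 2.3.3, scipy 1.17.1 and matplotlib 3.10.9 were used.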

Additional observations from a re-analysis of the deposited data

How the results depend on the processing

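Over 13 alternative settings, 70 of 85 recomputed values stayed within the interval of the reported value (for the number of sites, within 1.5 times). Under that allowance, 281 sites with JunD below 70 and 529 with JunD below 100 counted as staying. Pairing by longest overlap could hardly move a value, since 382 of the 384 sites had a single BACH2 partner, and it left every value unchanged. Asking for a BACH2 −log10 q of 30 or more left 235 sites, 9.51% of narrow weak JunD peaks, with a median BACH2 width of 434 bp and a median fold of 12.95. With 15 or more the share was 18.8% and the median fold 9.34. Ranking BACH2 peaks by fold, with the same number kept, gave a share of 13.6% and a median fold of 10.9. Keeping JunD peaks up to 600 bp gave a median distance from summit to centre of 36 bp, a share within 100 bp of 88.0% and a share with another JunD peak within 10 kb of 22.7%. Neighbours within 5 kb were found at 33.9% (BACH2) and 17.7% (JunD) of sites, and within 25 kb at 63.3% and 44.5%. The neighbour shares at 5 and 25 kb move by construction, as do the number and the share of sites at another BACH2 limit. BACH2 fold and width go with −log10 q, so the limit itself also bears on their medians there. Ranking by fold selects on the fold itself, so it bears on the median fold of 10.9. The limit of 600 bp on JunD width bears on how far a summit can lie from the centre. For the remaining shifts the cause was not tested. The alternatives for motifs at the BACH2 summit were not run. No paired analysis was possible because there was 1 library per group. JunD sites too weak to be called are missing from the list, and how deep the sequencing was is unknown.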
